A study of Callithrix jacchus with 39 samples.

Results

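Spleen of the marmoset Callithrix jacchus, a New World primate, was profiled by ChIP-seq for 2 histone marks, H3K27ac and H3K4me3. The 4 libraries whose titles name spleen, 2 per mark, were taken from the 31 ChIP libraries of the series and set against 27 libraries of the same marks. Those came from 7 other tissues, namely colon, heart, kidney, liver, pancreas, skeletal muscle and stomach. Every tissue and mark had 2 numbered libraries, but for heart H3K4me3 only replicate 2 was at hand. The labels give no treatment, genotype, age or sex, and they do not state whether the 2 replicates came from different animals, so each spread between replicates may be technical. The spleen libraries gave 20368 reproducible H3K27ac regions and 14268 reproducible H3K4me3 regions, that is, regions found in both replicates. The catalogues over 8 tissues held 65170 H3K27ac and 23039 H3K4me3 regions.

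H3K27ac is an acetylation of histone H3 found at active promoters and active enhancers, and H3K4me3 is a methylation concentrated at promoters. A region with acetylation and no H3K4me3 is therefore often read as a candidate enhancer, and enhancers differ between cell types more than promoters do. The spleen filters blood and holds B cells, T cells and macrophages in its white and red pulp, whereas liver, pancreas, kidney and the gut tissues are dominated by epithelial cells and heart and skeletal muscle by muscle cells. The tissue label could not be checked against marker genes, because no gene annotation of the calJac3 build of these lists was used here, and regions are named by position on calJac3. In whole tissue, a region carried by few cells and a region weakly marked in many cells cannot be told apart.

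Spleen H3K27ac lists held 35819 and 30663 peaks, covering 28.1 and 23.5 Mb, and the 14 H3K27ac libraries of other tissues held 24590 to 51554 peaks. Spleen H3K4me3 lists held 16946 and 18658 peaks, covering 13.9 and 17.03 Mb, and the 13 H3K4me3 libraries of other tissues held 16386 to 24424. Median peak length was 572 and 571 bp for spleen H3K27ac and 716 and 803.5 bp for spleen H3K4me3. The 2 spleen H3K27ac lists shared 0.490 of their combined length (Jaccard index), and the 2 H3K4me3 lists shared 0.661. Of the peaks of H3K27ac replicate 1, 61.2% were met in replicate 2, and 74.4% in the opposite direction; for H3K4me3 the values were 91.4% and 79.8%. The read depth of the libraries is unknown, and a missing peak says only that none was called.

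Spleen lay within the range of the other tissues in 14 of the 15 comparisons of tissues. In the remaining one, spleen had the fewest H3K4me3 peaks of the 8 tissues, 17802 ± 1211 (SD, n = 2 libraries) against a mean of 20622 ± 1433 (SD, n = 7 tissues). The exact permutation test over tissues, two-sided, gave p = 0.125, which is the smallest p that 1 tissue against 7 allows, and an adjusted p of 1 over the 15 comparisons. No comparison of spleen with the other tissues could therefore pass a threshold of 0.05, and the other 14 gave exact permutation p-values from 0.5 to 1. Mean H3K27ac peak length was 775 ± 12.2 bp in spleen (SD, n = 2) and 779 ± 77.3 bp in the other tissues (SD, n = 7).

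Regions of spleen H3K27ac divided by H3K4me3 overlap into 11957 promoter-like regions, which met an H3K4me3 peak in at least 1 spleen library, and 8411 enhancer-like regions, which met none. The names stand for this rule alone. Enhancer-like regions made up 41.3% of spleen regions and 38.9 ± 7.14% in the other tissues (SD, n = 7; 26.99% in heart to 48.7% in liver). In single libraries the enhancer-like share of peaks was 60.5% and 53.8% in the 2 spleen replicates, within the 40.6% to 60.6% of the 14 other libraries. Promoter-like spleen regions were longer, with a median of 1124 bp against 814 bp for enhancer-like ones, and they held 15.8 Mb against 8.34 Mb. Among promoter-like regions, 10678 met H3K4me3 in both spleen libraries and 1279 in one of them. Among enhancer-like regions, 1505 met H3K4me3 in another tissue and 6906 met it in none of the 8 tissues, so most spleen enhancer-like regions had no H3K4me3 in any list.

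The classes recurred unequally between spleen replicates. An average of 51.9 ± 11.97% of enhancer-like peaks was met by the other spleen replicate, and 89.6 ± 1.62% of promoter-like peaks (SD over the 2 directions). In the other tissues these values were 55.6 ± 7.46% and 89.0 ± 1.64% (SD, n = 7). Spleen H3K27ac replicate 1 had 13894 peaks that replicate 2 lacked, 38.8% of its list, which was the highest share among the replicate 1 lists of the 8 tissues. Of these unmatched peaks 88.3% were enhancer-like. The unmatched peaks of both classes had a median of 417 bp, against 758 bp in the matched ones. In replicate 2 the unmatched peaks numbered 7850, or 25.6%, with a median of 392 bp.

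Breadth, the number of other tissues with H3K27ac at a spleen region, separated the classes. Of 8411 enhancer-like regions, 2001 were in no other tissue, 1758 in 1, 1155 in 2, 865 in 3, 730 in 4, 644 in 5, 655 in 6 and 603 in all 7. Of 11957 promoter-like regions, 9501 were in all 7 other tissues, or 79.5%, and 97 were in none. At every breadth the spleen share of enhancer-like regions lay within 1 SD of the mean of the other tissues, as the plot of regions by breadth shows. The share of promoter-like regions found everywhere was 79.5% in spleen against 72.0 ± 6.58% in the other tissues (SD, n = 7), second to heart at 81.8% (two-sided exact permutation test over tissues, p = 0.375). The difference of 7.45 points was 3.28 points with lists of equal length and 11.9 points at 50% overlap. This comparison was chosen after the values were seen.

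**Figure D1:**
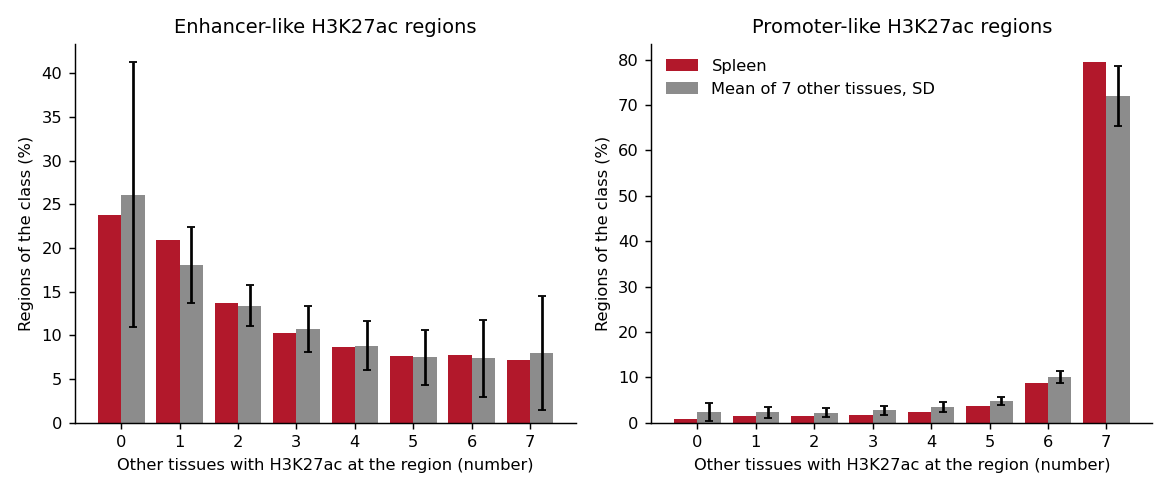
Share of H3K27ac regions (percent of the class) by the number of other tissues with H3K27ac at the region, for spleen (red) and as the mean of the 7 other tissues (grey, SD bars), with enhancer-like regions on the left and promoter-like regions on the right. Spleen enhancer-like regions decline from 23.8% in no other tissue to 7.17% in all 7, and 79.5% of spleen promoter-like regions are in all 7.

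Most spleen-restricted regions were enhancer-like, 2001 of 2098. A region is called restricted here where no H3K27ac library of the 7 other tissues overlapped it. The 2001 restricted enhancer-like regions were 23.8% of the class, against 30.2% of the pooled enhancer-like regions of the other tissues, each tested the same way. As tissue means the comparison is 23.8% in spleen and 26.1 ± 15.2% in the other tissues (SD, n = 7; 7.32% in heart to 46.6% in skeletal muscle; exact permutation test, p = 1). Its direction depended on the processing: spleen was 3.78 points higher with lists of equal length and 8.26 points higher when presence in another tissue needed both of its replicates. Without spleen H3K27ac replicate 1 or 2, where the remaining list stands whole for the reproducible set, the count was 5982 or 8261 and the share 9.38 or 11.7 points above the mean of the others; without liver H3K27ac replicate 1 the share was 0.0949 points above it. In single libraries, 38.1% and 36.3% of the enhancer-like peaks of the spleen replicates met no peak of another tissue, and the 14 other libraries ranged from 14.6% to 53.5%.

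Restricted promoter-like regions were rare in spleen. The 97 such regions were 0.811% of the class, against 2.54% of the pooled promoter-like regions of other tissues. The share was below the mean of the others by a difference of -1.60 points (exact permutation test, p = 0.625), which was -0.836 points with lists of equal length and -0.890 points with H3K4me3 required in every library. Of these 97, 72 had no H3K4me3 in another tissue, 12 had it in 1 and 3 had it in all 7, so at these 3 the promoter mark was shared and the acetylation was called in spleen alone. Among the 97, 31 met H3K4me3 in both spleen libraries and 66 in only one of them. Leaving out a spleen library moved the count to 166 (H3K27ac replicate 1), 208 (H3K27ac replicate 2) or 53 (H3K4me3 replicate 2). Restricted enhancer-like regions almost never carried H3K4me3 elsewhere: 1984 of 2001 met none in any tissue. Of all spleen enhancer-like regions, 6906 of 8411 met none. The restricted share with H3K4me3 elsewhere was 0.850% in spleen, rank 5 of the 8 tissues, against 1.71 ± 2.49% in the others (SD, n = 7).

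Restricted enhancer-like regions of spleen were short. They had a median of 677 bp, against 871 bp in enhancer-like regions shared with at least 1 other tissue, a difference of -194 bp. Median length increased with breadth from 677 bp in no other tissue through 777.5 bp in 1 and 883 bp in 3 to 1025 bp in 5, and was 987 bp in all 7. The difference between restricted and shared regions had the same sign in 8 of 8 tissues (mean -133 ± 40.4 bp, SD, n = 8; exact two-sided test by sign flips, p = 0.00781, the smallest that 8 tissues allow). It was largest in spleen, where -194 bp stood against -124 ± 34.5 bp in the other tissues (SD, n = 7; exact permutation test over tissues, p = 0.125). A longer region can meet a peak of another tissue more easily, so the rule of 1 bp itself favours a negative difference. The 8 tissues are also not independent, since each restricted set is defined by the lists of the other 7. Where the central 300 bp alone had to be met, the mean over the 8 tissues was -106 bp. Where 50% of the region had to be met, it was -70.75 bp. These length comparisons were added after the values were seen and are unadjusted. They come from 282 measures set against the other tissues, of which 5 reached p = 0.125 in the exact permutation test. These 5 were 1.77% of the measures. Were each of the 8 tissues equally likely to deviate most, the proportion would be 0.125, so spleen was the most deviant tissue less often than that. The measures overlap, some had only 6 other tissues and could not reach 0.125, and this proportion was not tested. The H3K4me3 peak number, at p = 0.125 in the exact permutation test, was not among the 282. Nor were the partner shares of regions with 1 other tissue.

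**Figure D2:**
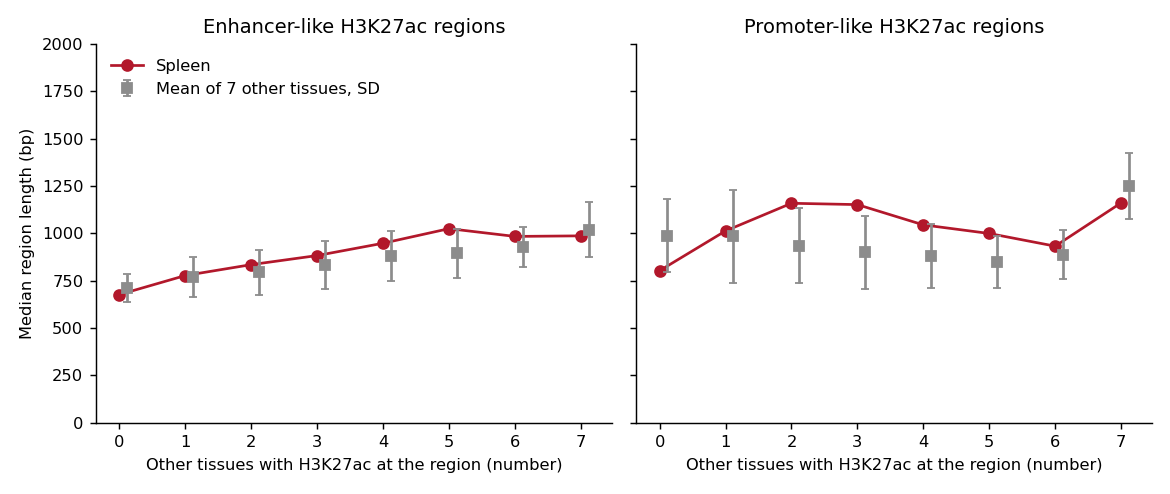
Median length (bp) of H3K27ac regions by the number of other tissues with H3K27ac at the region, for spleen (red, joined) and as the mean of the medians of the 7 other tissues (grey, SD bars), with enhancer-like regions on the left and promoter-like regions on the right. Spleen enhancer-like regions reach 1025 bp at 5 other tissues from 677 bp at 0, and spleen promoter-like regions show no steady order with breadth.

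Promoter-like regions followed another course. Their median was 803 bp in no other tissue, 1159 bp in 2, 932.5 bp in 6 and 1161 bp in all 7. In spleen the medians at 2 and 3 other tissues, 1159 and 1152 bp, each had rank 2 of the 8 tissues, whose other members averaged 935 ± 199 and 900 ± 193 bp (SD, n = 7; exact permutation tests, p = 0.375 for each).

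Position relative to H3K4me3 also changed with breadth. Spleen enhancer-like regions lay a median of 22.2 kb from the nearest spleen H3K4me3 peak, against 22.0 ± 2.81 kb in the other tissues (SD, n = 7; exact permutation test, p = 1). Restricted regions lay farther, at a median of 38.9 kb, against 18.3 kb for shared regions. Regions present in all 7 other tissues lay 3.74 kb from H3K4me3, and 64.2% of them met H3K4me3 in some other tissue, against 0.850% of restricted ones. The difference of restricted minus shared medians was positive in 8 of 8 tissues (17.2 ± 8.67 kb, SD, n = 8; exact two-sided test by sign flips, p = 0.00781), with 20.6 kb in spleen, rank 3 of the 8. Like the length comparison, it was chosen after the values were seen, and its 8 tissues are not independent. Within 2 kb of H3K4me3 lay 7.79% of restricted and 19.0% of shared spleen regions, and beyond 100 kb lay 24.1% and 13.6%.

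**Figure D3:**
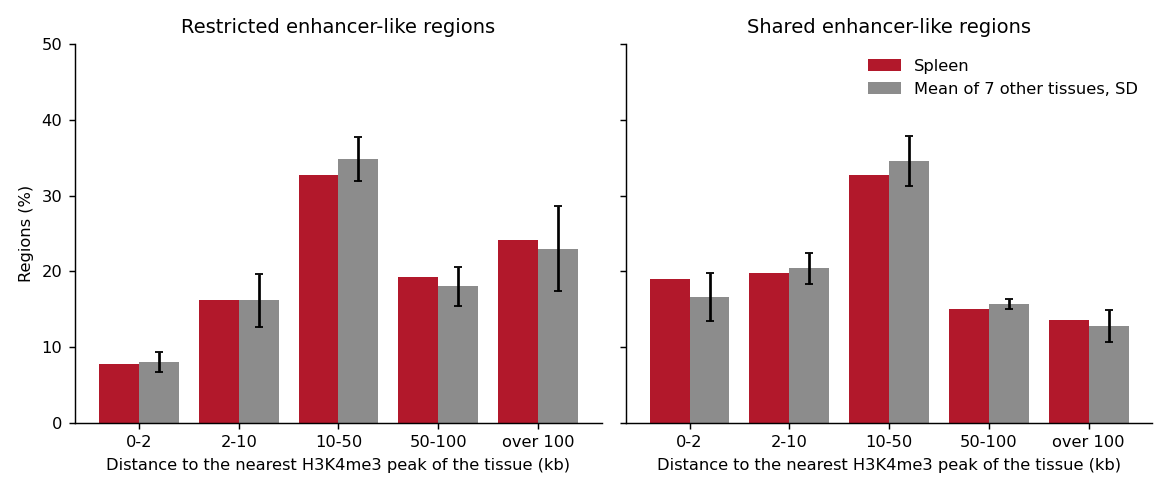
Share of enhancer-like H3K27ac regions (percent) by distance to the nearest H3K4me3 peak of the same tissue (kb), for restricted regions (left) and shared regions (right), in spleen (red) and as the mean of the 7 other tissues (grey, SD bars). In spleen 24.1% of restricted and 13.6% of shared regions lie beyond 100 kb, and each spleen bar is close to its grey neighbour.

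Spleen-restricted regions formed few clusters. Of all spleen enhancer-like regions, 51.0% lay within 12 kb of another, against 54.0 ± 7.96% in the other tissues (SD, n = 7; exact permutation test, p = 0.875). Of the 2098 restricted regions of both classes, 30.7% were within 12 kb of another restricted one, against 39.4 ± 13.7% in the other tissues (SD, n = 7), where spleen had rank 7 of 8 (exact permutation test, p = 0.5). They formed 1738 clusters, singletons included; 59 held at least 3 regions and 2 held at least 5. A shared enhancer-like region lay within 12 kb of 43.9% of the restricted and 64.4% of the shared enhancer-like regions in spleen, and of 39.8 ± 5.73% and 65.5 ± 2.82% in the other tissues (SD, n = 7). The difference between restricted and shared regions was not tested here.

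The 5 largest restricted clusters by covered length were few and compact. The first, chr2:66915261-66931586, had 7 restricted regions over 16.3 kb, and H3K27ac covered 11.0 and 6.82 kb of it in the spleen replicates. Among the 14 other H3K27ac libraries only 1, from heart, had any peak within that span, of 0.426 kb, between the restricted regions. H3K4me3 was present there in spleen at 0.897 and 1.41 kb, and in 10 of 13 libraries of the other tissues, reaching 2.53 kb in skeletal muscle, so H3K4me3 within that span was not limited to spleen. The other 4 clusters had no H3K27ac and no H3K4me3 in any library of another tissue. At chr5:63297377-63305681, 5 regions held 4.23 and 3.83 kb of H3K27ac in the spleen replicates. At chr12:32831290-32836377, 4 regions held 4.27 and 2.25 kb, with 0.384 kb of H3K4me3 in spleen replicate 1 alone. The spleen replicates differed more at chr2:170080990-170086115, with 1.67 and 3.76 kb in 3 regions, and on the unplaced sequence Un_GL286373 at 426332-433950, with 1.55 and 3.98 kb in 4 regions.

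Restricted regions were also dense in a few windows of 1 Mb. The window chr6:12000001-13000000 held 9 restricted regions among 16 reproducible spleen regions, whereas the other tissues averaged 0.143 restricted and 1.14 reproducible regions there. The windows chr1:68000001-69000000 and chr13:15000001-16000000 held 8 restricted spleen regions each, among 22 and 27 reproducible spleen regions. The other tissues averaged 9.29 and 21.4 reproducible regions there and reached 18 and 33. Liver had 4 restricted regions of its own in the window on chromosome 1 and skeletal muscle 6 in that on chromosome 13. These windows were chosen for their spleen counts, so lower counts of other tissues in them follow in part from that choice. The densest windows of the other tissues were not listed for comparison. Of 1068 windows with any restricted spleen region, the median held 1. By chromosome, the spleen share of all restricted enhancer-like regions lay within the range of the other tissues on 19 of 24 chromosomes, above it on chromosomes 5, 20, X and Y, and below it on chromosome 15. On chromosome 5 it was 8.35%, against 4.59% to 8.01%, and on chromosome 15 it was 2.55%, against 3.54% to 6.05%. Chromosome Y rests on 4 regions. For all enhancer-like regions, spleen was also below the range on chromosome 15 (3.22%, against 3.50% to 4.39%) and above it on X (1.99%, against 1.13% to 1.54%). It was above the range on chromosome 14 as well (4.09%, against 3.33% to 4.02%) and below it on chromosome 7 (6.59%, against 6.62% to 7.59%). The number of chromosomes outside the range was not set against chance. On chromosome 5 spleen held 8.89% of all its enhancer-like regions, within the range of the others and above its own restricted share.

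Spleen enhancer-like regions were shared most with liver and pancreas and least with colon and skeletal muscle. Overlap by either library of the partner was 51.4% for liver, 47.0% for pancreas, 36.8% for kidney, 32.2% for heart, 30.2% for stomach, 25.9% for skeletal muscle and 25.6% for colon. Single liver libraries met 40.5% and 41.7% and single pancreas libraries 39.2% and 34.8%, so both liver libraries lay above both pancreas libraries, while the kidney libraries met 22.0% and 33.6%. Promoter-like sharing ran from 85.7% with skeletal muscle to 96.7% with pancreas. Enhancer-like sharing was lower than promoter-like sharing with 7 of 7 partners, by a difference of -56.8 ± 6.88 points (SD, n = 7; exact two-sided test by sign flips, p = 0.0156, the smallest that 7 partners allow; adjusted p = 0.0156 over the 2 partner tests and 0.133 over all 17 tests). The partners share the spleen libraries, so they are not independent. The Jaccard index with the partners was 0.301 ± 0.038 for spleen H3K27ac and 0.572 ± 0.0278 for spleen H3K4me3 (SD, n = 7), with a difference of -0.271 ± 0.0208 and the same sign in 7 of 7 (exact test by sign flips, p = 0.0156, adjusted p = 0.133 over all 17).

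The order of partners changed with lists of equal length. Liver lists were the longest of the series and heart lists the shortest, with means of 48936 and 25640 H3K27ac peaks. When each H3K27ac list was cut to its 24000 longest peaks and each H3K4me3 list to its 16000 longest, spleen lists and classes included, spleen enhancer-like regions overlapped pancreas at 40.9%, heart at 37.3%, kidney at 36.7%, liver at 35.2%, stomach at 29.3%, skeletal muscle at 23.1% and colon at 22.8%. Liver thus moved to rank 4 and heart to rank 2, and colon and skeletal muscle remained lowest. As deposited, enhancer-like sharing and the H3K27ac length covered by the partner had a Pearson correlation of 0.598 and a Spearman correlation of 0.214 over the 7 partners, which share the spleen libraries. Measured the other way round, 65.6% of heart, 36.9% of pancreas, 35.7% of kidney, 30.0% of stomach, 22.2% of skeletal muscle, 20.5% of liver and 17.3% of colon enhancer-like regions met a spleen peak.

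**Figure D4:**
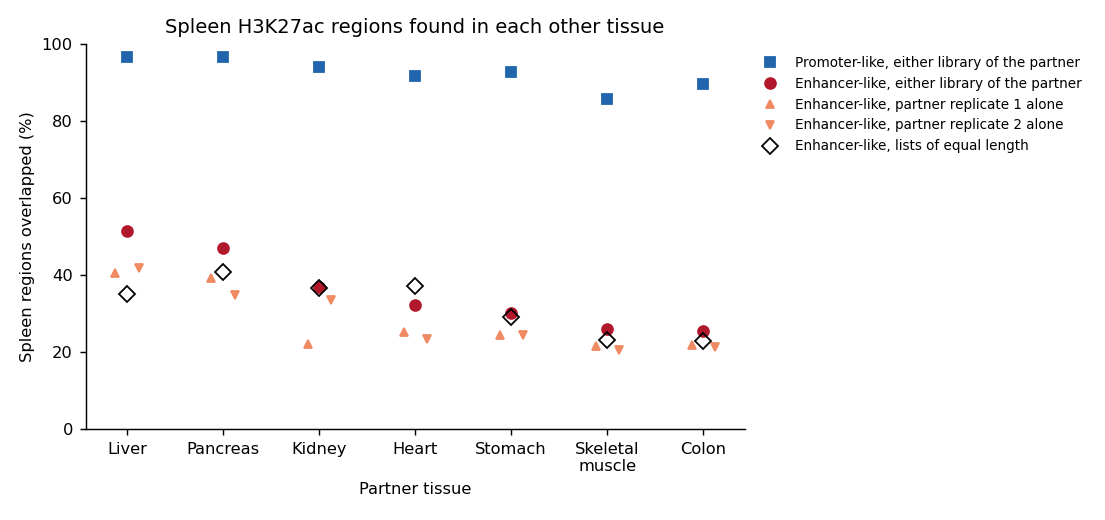
Share of spleen H3K27ac regions (percent) overlapped in each of the 7 other tissues, for promoter-like regions (squares), enhancer-like regions by either partner library (circles), by each partner replicate (triangles) and with all lists cut to equal length (open diamonds). Enhancer-like sharing is highest with liver at 51.4% as deposited and with pancreas at 40.9% at equal length, and promoter-like sharing is lowest with skeletal muscle, at 85.7%.

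Regions shared with exactly 1 other tissue narrowed this further. Of 1758 such spleen enhancer-like regions, 758 were shared with liver (43.1%), 443 with pancreas (25.2%), 153 with kidney, 134 with heart, 127 with skeletal muscle, 84 with colon and 59 with stomach. Peaks of both liver libraries met 210 of the 758, and peaks of both pancreas libraries met 76 of the 443; in colon 43 of 84 were met by both. Liver took 26.5 ± 16.0% of such regions in the 6 other tissues, where kidney was higher at 50.04% (exact permutation test over 7 tissues, p = 0.571). Pancreas took 14.4 ± 5.25% there, and spleen at 25.2% was the highest of the 7 (exact permutation test, p = 0.143, the smallest that 7 tissues allow). The liver share was 25.2% with lists of equal length, 26.7% without liver replicate 1, where pancreas led, 31.0% without liver replicate 2 and 34.3% without spleen H3K27ac replicate 2. These partner shares were chosen for description after the values were seen.

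Missing partners gave a complementary list. Of 1054 spleen promoter-like regions acetylated in all but 1 of the other tissues, 545 lacked skeletal muscle, 277 colon, 101 heart, 54 kidney, 48 stomach, 18 liver and 11 pancreas. Of 655 enhancer-like regions of that kind, 249 lacked skeletal muscle, 196 colon and 100 heart. Over the whole H3K27ac catalogue, skeletal muscle had the most regions called in each of the 7 remaining tissues and not in itself, 874, and pancreas the fewest, 42. Those regions include a spleen peak by definition, so these counts are a property of the skeletal muscle and pancreas lists as much as of spleen.

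Spleen H3K4me3 was mostly common to the other tissues. Of 14268 reproducible regions, 12783 had H3K4me3 in all 7 others, or 89.6%, the highest of the 8 tissues, whose other members averaged 80.0 ± 6.59% (SD, n = 7; p = 0.25 by exact permutation). The difference of 9.64 points was 3.43 points with lists of equal length and 14.8 points at 50% overlap. Without spleen H3K4me3 replicate 1 it was -1.66 points, and a lone list then stands for the reproducible set. Restricted H3K4me3 regions numbered 95, or 0.666%, against 1.73% of the pooled H3K4me3 regions of other tissues. Of the 95, 92 carried spleen H3K27ac, or 96.8%, as did 12187 of all 14268 spleen H3K4me3 regions. In the other tissues 73.3 ± 17.3% of restricted H3K4me3 regions carried H3K27ac (SD, n = 7, exact permutation test, p = 0.25). As tissue means the restricted share differed by -0.993 points (exact permutation test, p = 0.5), by -0.0988 points with lists of equal length, by -0.473 points with peaks of at least 500 bp and by -1.90 points with reproducible regions for presence. Regions of 2 kb or more numbered 971, or 6.81%, against 12.6 ± 4.97% in the other tissues (SD, n = 7; exact permutation test, p = 0.375). Heart was the lowest of these at 2.50%, and its single H3K4me3 list stood unfiltered for its reproducible regions.

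Spleen regions with H3K4me3 and no acetylation were mostly acetylated in at least 1 other tissue. They numbered 2081, or 14.6%, against 15.8 ± 4.77% in the other tissues (SD, n = 7; exact permutation test, p = 1), with a median of 739 bp against 1096 bp for acetylated ones. Of the 2081, 1815 had H3K27ac in some other tissue, or 87.2%, the highest of the 8 tissues (71.2 ± 8.06% in the others, SD, n = 7; exact permutation test, p = 0.25). The partner acetylating most of them was liver, with 1436 (69.0%), and skeletal muscle acetylated fewest, with 910 (43.7%). H3K27ac of either library covered the most in liver, 56.7 Mb, against 34.6 Mb in skeletal muscle and 23.6 Mb in heart. Dependence of these counts on list length was not tested. Only 338 of the 2081 were acetylated in all 7 others, or 16.2%, and 266 in none. Of the acetylated spleen H3K4me3 regions, 99.5% had H3K27ac in some other tissue. Of the same 2081, 82.3% had H3K4me3 in all 7 other tissues, against 52.1 ± 8.91% for the corresponding regions of the others (SD, n = 7; exact permutation test, p = 0.125), none of which exceeded 66.4%. This difference was 30.2 points, 17.9 points with lists of equal length and 6.43 points without spleen H3K4me3 replicate 1. It was noticed among the 282 measures and is unadjusted.

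Regions with both marks in spleen and neither elsewhere were few. Reproducible H3K27ac and reproducible H3K4me3 met in spleen, with neither mark in any library of another tissue, at 18 regions. They were 0.151% of promoter-like regions, against 0.799% of the pooled promoter-like regions of other tissues. Without one spleen library the count was 30 or 33 (H3K27ac replicate 1 or 2) and 54 or 38 (H3K4me3 replicate 1 or 2). The longest, chr9:20674298-20675797, had 1.5 and 0.833 kb of H3K27ac and 0.307 and 0.910 kb of H3K4me3 in the spleen replicates. At chrX:10846692-10848142, H3K27ac covered 1.44 and 1.41 kb and H3K4me3 0.338 and 1.18 kb. At chr18:43458318-43459593, H3K27ac covered 1.24 and 0.874 kb and H3K4me3 0.513 and 0.830 kb. At these regions and the next, chr1:186469615-186470832 and chr11:15583643-15584802, H3K4me3 was longer in replicate 2 than in replicate 1 each time.

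Spleen H3K4me3 exceeded every other library most at 5 regions, ranked by the lower spleen replicate minus the highest other library within the region. At chr12:88431596-88435822, H3K4me3 covered 3.76 and 3.52 kb in spleen, and the highest other library, from skeletal muscle, reached 1.17 kb. Both spleen H3K27ac libraries covered most of it, with 4.23 and 3.63 kb, and the highest other library, from heart, had 0.213 kb. At chr22:1777319-1780049, H3K4me3 covered 2.59 and 2.57 kb in spleen and 0.316 kb in 1 liver library, but H3K27ac was shared there, with 2.73 and 2.71 kb in spleen and up to 2.41 kb in pancreas. At chr3:28097748-28100022, H3K4me3 covered 1.67 and 2.21 kb in spleen and was called in none of the 13 other libraries, and H3K27ac was called in 1 of 14, at 0.330 kb in liver. At chr9:18805438-18807982, H3K4me3 covered 2.49 and 2.50 kb in spleen, with 1.15 kb in the only other library with a peak, from liver. H3K27ac was shared there, with 2.503 and 2.542 kb in spleen and up to 1.54 kb in pancreas. The fifth, chr12:28378705-28380773, had 1.71 and 1.97 kb of H3K4me3 in spleen and at most 0.411 kb elsewhere. Its H3K27ac was shared too, with 1.495 and 1.648 kb in spleen and up to 1.388 kb in pancreas. In total 17 spleen regions exceeded every other library by 1 kb or more, or 0.119% of spleen H3K4me3 regions. The other tissues had a mean of 95.4 ± 136 such regions, or 0.545 ± 0.748% (SD, n = 7). Their counts ran from 0 in skeletal muscle to 388 in liver. The exact permutation test gave p = 0.5 for the count and for the share.

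**Figure D5:**
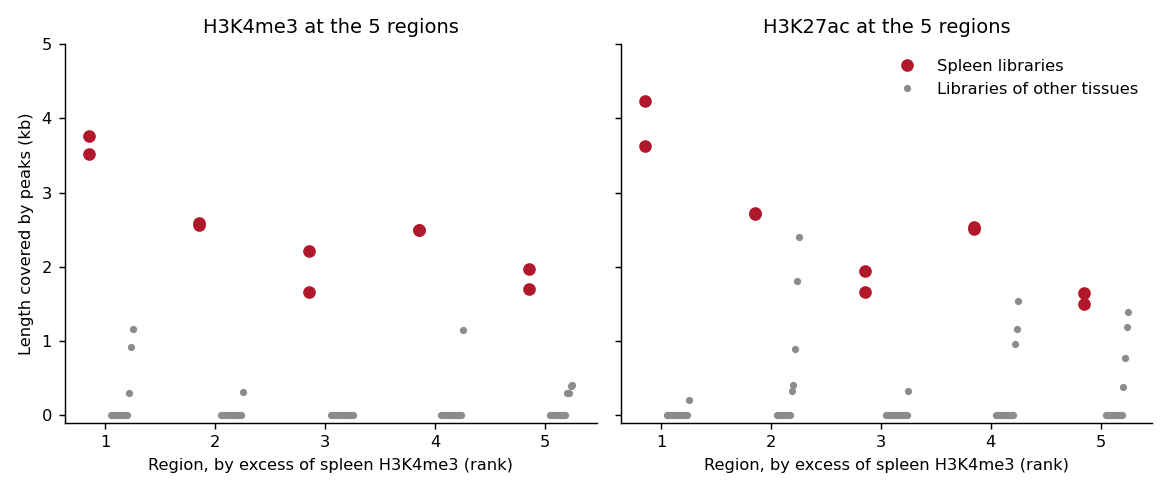
Length covered by peaks (kb) at the 5 regions with the greatest excess of spleen H3K4me3, for H3K4me3 (left) and H3K27ac (right), with each spleen library in red and each library of another tissue in grey. The spleen H3K4me3 points lie between 1.67 and 3.76 kb, above every other library at each region, while pancreas reaches 2.41 kb of H3K27ac at the second region.

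Regions missing from spleen were more numerous than in most tissues. Of 65170 catalogue regions, 570 had H3K27ac in at least 1 library of each of the 7 other tissues and in no spleen library, or 0.875%, against 0.452% for the other tissues pooled. Of 23039 H3K4me3 regions, 474 were missing in this way, or 2.06%, against 0.864%. Heart, which had a single H3K4me3 library, gave 1017 of the 1393 pooled missing H3K4me3 regions, so that pooled share rests mostly on heart. Spleen also had the fewest H3K4me3 peaks of the 8 tissues. Spleen had rank 3 of 8 for H3K27ac and rank 2 for H3K4me3 (exact permutation tests over tissues, p = 0.625 and p = 0.25). Of the 570, 395 had H3K4me3 in spleen, or 69.3%. H3K4me3 was in all 7 other tissues at 403 of the 570, and 36 of these lacked it in spleen. Of the 474, 124 had H3K27ac in spleen, or 26.2%. H3K27ac was in all 7 other tissues at only 93 of the 474, and 38 of these lacked it in spleen. At 55 of the 474 no other tissue had H3K27ac. Both marks together gave 1044 missing regions, 2014 without spleen H3K4me3 replicate 2 and 1728 without the heart H3K4me3 library, which removes heart from the tissues required.

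The longest regions missing from spleen showed both kinds. At chr18:37276566-37285571, a stretch of 9.01 kb, all 14 H3K27ac libraries of other tissues had 2.29 to 8.10 kb (median 6.05 kb) and spleen had none, while H3K4me3 was kept in spleen at 0.958 and 1.69 kb, against a median of 3.81 kb in 13 other libraries. At chr16:27745360-27754490, 13 of 14 other libraries had H3K27ac, up to 9.13 kb in colon, and spleen kept H3K4me3 at 0.979 and 1.18 kb, against a median of 2.20 kb elsewhere. Both marks were missing in spleen at chr1:172034790-172044627, chr1:177851761-177860350 and chr6:154066256-154073224, where liver had the most H3K27ac, at 9.09, 8.16 and 6.77 kb. The 14 other H3K27ac libraries had medians of 2.40, 0.867 and 3.42 kb there, and 12, 10 and 13 of them had a peak. H3K4me3 was called in only 4, 5 and 6 of the 7 other tissues, so lacking it was not particular to spleen. For H3K4me3, chr19:21603803-21609160 had peaks in all 13 other libraries, from 0.300 kb to 5.22 kb in colon, and neither mark in spleen. H3K27ac was called there in 4 of the 7 other tissues. At chr1:116141402-116145341, every other library had H3K4me3, from 1.41 to 3.76 kb, and spleen had none, with 0.412 kb of H3K27ac in replicate 1 alone. The remaining H3K4me3 regions, chr12:80449544-80454177, chrX:59174135-59178117 and chr6:87605511-87609439, had H3K4me3 in 12, 11 and 12 of the 13 other libraries.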

How the data were processed

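The authors deposited 1 narrowPeak list per ChIP library, with a genome build named calJac3 in the peak names, and 8 input samples of the series are not analysed here. Per the submitters' processing notes the tools included bedtools 2.26, MACS2 2.1.1.20160309, Bowtie 1.1.2 and SAMtools 1.3.1; which step used which is not stated. Of the deposited columns the first 3 were used (sequence, start, end), so no peak was ranked or filtered by strength. The antibodies and the DNA kit are those in the labels. Read depth is unknown.

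Peaks sharing 1 bp or more counted as overlapping. A reproducible region is the union of overlapping peaks from both replicates, formed from peaks that meet one in the other list. For heart H3K4me3, with 1 library, the whole list of 18231 peaks stood for the reproducible regions in every H3K4me3 mean over tissues. Clusters were joined within 12 kb. Spleen was set against the 7 tissue means by exact permutation over tissues, and against partners by exact sign-flip tests, all two-sided, with Benjamini-Hochberg adjustment over 15 tissue tests, 2 partner tests and all 17. Regions were named by rank: the 5 largest restricted clusters, doubly marked regions, H3K4me3 excesses and missing regions per mark, and the 3 densest windows of 1 Mb. The members, classes and rules were chosen with earlier results of these data known. The interval and test code (Python 3.11.15, numpy 2.4.6, scipy 1.17.1, matplotlib 3.10.9) was tested on simulated lists. Alternatives were peaks of at least 500 bp, lists of the 24000 longest H3K27ac and 16000 longest H3K4me3 peaks, overlap of 50% or of the central 300 bp, assembled chromosomes, H3K4me3 in every library, reproducible regions for presence, joining at 5 or 25 kb, libraries as units, a replicate block, and leaving out each library.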

Additional observations from a re-analysis of the deposited data

How the results depend on the processing

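The partner tests, the restricted minus shared differences, the spleen H3K4me3 peak number and the mean H3K27ac Jaccard index kept their direction and side of the threshold under every alternative run on them. The 15 tissue comparisons cannot pass 0.05, so a kept side says nothing of stability, and a sign that turned does so between values that do not pass.

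Spleen minus the mean of the other tissues changed sign under these settings. With peaks of at least 500 bp, mean H3K27ac length became 5.21 bp and H3K4me3 without H3K27ac 0.0875 points. With lists of equal length, replicate overlap of promoter-like regions became -0.466 points, the restricted share of enhancer-like regions 3.78 points, distance to H3K4me3 -1.05 kb and H3K4me3 without H3K27ac 1.94 points. Distance was -1.89 kb at 50% overlap, -0.331 kb at the central 300 bp and -0.937 kb with H3K4me3 in every library. With reproducible regions for presence, the restricted share became 8.26 points. Differences that kept their sign also moved by over 1.5 times: at equal length the enhancer-like share was 0.626 points, mean H3K27ac length -48.9 bp, mean H3K4me3 length -211 bp and replicate overlap of enhancer-like regions -6.38 points. At 50% overlap the enhancer-like share was 4.94 points, the restricted share -0.653 points and clustering -1.44 points.

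Counts moved as well. Restricted enhancer-like regions numbered 1047 with peaks of at least 500 bp and 4046 with reproducible regions for presence. Restricted promoter-like regions numbered 147 at 50% overlap, 31 with H3K4me3 in every library and 374 with reproducible presence. Doubly restricted regions numbered 28 at equal length and 48 with reproducible presence. Missing regions of both marks, 1044 together, numbered 680, 217 and 156 at equal length, at 50% overlap and with reproducible presence. The liver share of regions with 1 other tissue was 25.2% at equal length and 35.1% with reproducible presence.

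Leaving out 1 library at a time gave these ranges. H3K27ac peak number ran from -5040 to 116 and its mean length from -20.0 to 4.83 bp. The enhancer-like share ran from -0.628 to 21.6 points, the restricted share of enhancer-like regions from -4.98 to 11.7, that of H3K4me3 regions from -2.51 to 0.857, and H3K4me3 without H3K27ac from -3.70 to 8.60. Distance ran from -1.36 to 8.54 kb, clustering from -5.49 to 16.9 points, the H3K4me3 Jaccard index from -0.0325 to 0.0114 and H3K4me3 in all 7 from -1.66 to 14.1. Restricted counts ran from 2001 to 8261 (enhancer-like) and 53 to 208 (promoter-like), doubly restricted from 18 to 54, missing from 775 to 2014, and the liver share from 26.7% to 50.6%. The upper ends of the restricted counts come from leaving out a spleen library, whose lone list, unmatched peaks included, then stands for the reproducible set. Leaving out the sole heart H3K4me3 library drops heart and gave 1728 missing regions.

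The labels do not say what the replicate numbers stand for, and the data did not show that they pair the samples. Deviations of same-numbered spleen and partner libraries correlated at 0.00189 to 0.0344 for H3K27ac (0 of 7 over 0.1) and at 0.0230 to 0.175 for H3K4me3 (3 of 6). With the replicate block the Jaccard difference between marks was -0.281, and the exact permutation p-values of the tissue comparisons ran from 0.107 to 0.969. With libraries as units they ran from 0.143 to 0.942. No library group had enough samples for a test of outlying values; over the 8 tissue values of 20 comparisons, 0 of 40 extremes stood apart by Dixon's gap.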
